A study of Mus musculus with 435 samples.

Results

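The HOX cluster genes were followed in single reporter-positive cells of fetal XY mouse gonads. They were taken as every gene row named Hox, a cluster letter from a to d and a paralog number from 1 to 13, with nothing else in the name. This gave 33 of the 16459 rows, of which 10 belong to HoxA, 9 to HoxB, 7 to HoxC and 7 to HoxD. The mouse has 39 HOX genes, and the other 6 (Hoxa13, Hoxb13, Hoxc12, Hoxc13, Hoxd12 and Hoxd13) were not analysed here. On GRCm38 in the GENCODE M21 annotation the members lie on chromosome 6 from 52155590 to 52245810 (HoxA, minus strand), chromosome 11 from 96271457 to 96368256 (HoxB, plus strand), chromosome 15 from 102954427 to 103036852 (HoxC, plus strand) and chromosome 2 from 74679557 to 74765142 (HoxD, plus strand).

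HOX genes encode homeodomain transcription factors that give each level of the body axis its identity. Genes at one end of a cluster (low paralog numbers) are switched on early and far forward in the embryo, and genes at the other end later and further back, so that order on the chromosome follows order in time and space. HOX proteins bind DNA together with the cofactors Pbx, Meis and Pknox, and the fetal gonad forms in a trunk region where central and posterior paralogs are active.

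The cells came from XY gonads of mice on a mixed background that carry the NR5A1-eGFP reporter, which marks cells that use the regulatory region of Nr5a1, a factor of gonadal somatic precursors and steroid-producing cells. They were sorted for green fluorescence, so every group holds only reporter-positive cells, and captured in microfluidic chips at 5 stages named by embryonic day: first E10.5, next E11.5 and E12.5, then E13.5, and last E16.5. E10.5 has 1 capture and each later stage has 2, and these 9 captures are the replicates, since the cells of a capture share their gonads and their chip. The values are RPKM (read counts divided by transcript length and by the mapped reads of the library), a level per length, for 396 cells (59 at E10.5, then 52 and 41, 30 and 37, 56 and 56, and 31 and 34 in the paired captures). Nothing in the labels says which embryos a capture pooled, so p-values measure only the spread between captures.

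By the labels, cells were sequenced to about 25 M reads (E10.5 and E13.5) or 10 M reads (E11.5, E12.5 and E16.5). At the median exonic length of the HOX genes, 2566 bases, 1 RPKM was about 20 reads at E10.5 and E13.5 (20.1 to 20.8). Elsewhere it was 5.65 to 8.3 reads. These counts rest on the depth implied by the smallest steps of the values, not on the labelled depth. Capture medians of this implied depth were 7.83 to 8.1 M reads at E10.5 and E13.5. Elsewhere they were 2.2 to 3.24 M, so all lay below the labels. Median genes detected per cell ran from 4904.5 to 6503 over the captures. Comparisons of E13.5 with E10.5 and of E16.5 with E11.5 are therefore within one depth, and the others mix depths. The first E13.5 capture was made on a medium chip, and the second, like that of E10.5, on a small chip. The comparison of E13.5 with E10.5 therefore mixes chip sizes. The reporter read eGFP was at 683 to 3505 RPKM in the capture means. Sums over lists of marker genes moved with stage. The 5 measured mesonephric tubule and duct markers (of 6 listed) summed to 4.29 to 26.3 RPKM in the 3 early captures (up to E11.5). In the 6 late ones they summed to 0.00486 to 3.9. The 4 genes listed for adrenal cortex (Cyp11b1, Cyp21a1, Mc2r and Nr0b1) summed to 56.5 to 85.5 and 0.168 to 28.6. This sum was not split by gene and does not by itself show adrenal cells. No marker of either list was at 0 in all cells. Germ cell markers summed to 96.2 RPKM in the second E12.5 capture, which held all 11 cells with at least 2 of them, and to at most 0.948 in the early captures. Without the 11 germ-marker cells, and separately without the 19 cells with at least 2 mesonephric markers, the number of HOX genes that passed each test of capture means between stages was as reported below. The tests on shares of cells were not run without these cells. The 10 Sertoli markers summed to 105.05 to 234.2 RPKM in the early captures and 744.9 to 4017 in the late ones, and the make-up of the captures therefore differs between stages.

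Hoxd10 and Hoxd8 together made up 46.4% to 83.2% of the summed HOX level in the 6 captures from E12.5 on. The windows in front of both genes are shown because the comparisons below turn on them. Each is the 250 bases before the RefSeq transcription start on GRCm38.p6, 5′ to 3′ on the plus strand, at chr2:74691641-74691890 for Hoxd10 and chr2:74704365-74704614 for Hoxd8. Neither window overlaps an exon of its gene in GENCODE M21. The capitals mark the CCAAT box, the core bound by the general activator NF-Y.
Hoxd10: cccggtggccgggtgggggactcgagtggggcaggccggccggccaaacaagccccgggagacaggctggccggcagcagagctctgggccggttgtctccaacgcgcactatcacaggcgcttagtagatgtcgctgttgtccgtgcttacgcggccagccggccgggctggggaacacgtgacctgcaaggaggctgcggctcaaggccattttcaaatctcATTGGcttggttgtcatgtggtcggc
Hoxd8: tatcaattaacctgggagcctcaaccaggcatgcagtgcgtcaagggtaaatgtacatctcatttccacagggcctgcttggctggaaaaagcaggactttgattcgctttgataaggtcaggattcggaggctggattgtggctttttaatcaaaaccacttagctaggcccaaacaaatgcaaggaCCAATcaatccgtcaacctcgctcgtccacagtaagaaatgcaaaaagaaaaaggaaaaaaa
RefSeq windows were found for 19 of the 33 genes, 21 windows in all. The CCAAT letters, searched on both strands, were in 11 of the 21 windows and in 33.8% of the 32851 promoter windows of the same length. The TATA box (TATAAA) was in 3 of the 21 and in 12.4% of all, the GC box (GGGCGG) in 8 and 32.7%, the Pbx-HOX site (TGATNNAT) in 4 and 7.68%, the Meis site (TGACAG) in 2 and 15.9%, the Cdx site (TTTATNG) in 2 and 9.81%, and the GATA site (AGATAA) in 0 and 9.99%. None of these 6 occurred in the window of Hoxd10 or of Hoxd8. The base composition of the pair differed, with 65.6% G or C in the Hoxd10 window and 44.4% in that of Hoxd8.

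At E10.5 the HOX signal was spread over all 4 clusters, and by E16.5 it was nearly all HoxD. Summed over the 33 genes, the mean level was 183.5 RPKM at E10.5, then 140.0 and 103.2 (E11.5), 142.8 and 124.2 (E12.5), 104.6 and 137.2 (E13.5), and 55.6 and 121.4 (E16.5). HoxD made up 21.9% of this sum at E10.5, then 41.1% and 60.5% (E11.5), 50.6% and 82.5% (E12.5), 72.6% and 65.5% (E13.5), and 88.5% and 90.3% (E16.5). The E10.5 capture had the lowest HoxD share and both E16.5 captures the highest. HoxB had 31.6 RPKM at E10.5, 8.23 and 3.84 (E11.5), and 0.747 to 4.89 in the 6 late captures. HoxA had 55.5 RPKM at E10.5 and 0.721 and 1.16 at E16.5, and HoxC had 56.2 RPKM at E10.5 and 3.92 and 8.87 at E16.5. HoxD itself was at 40.2 RPKM at E10.5 and at 49.2 to 109.6 in the 8 other captures. The E10.5 sum of HoxD includes 16.6 RPKM of Hoxd9, of which 1 cell held 89.8%.

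**Figure D1:**
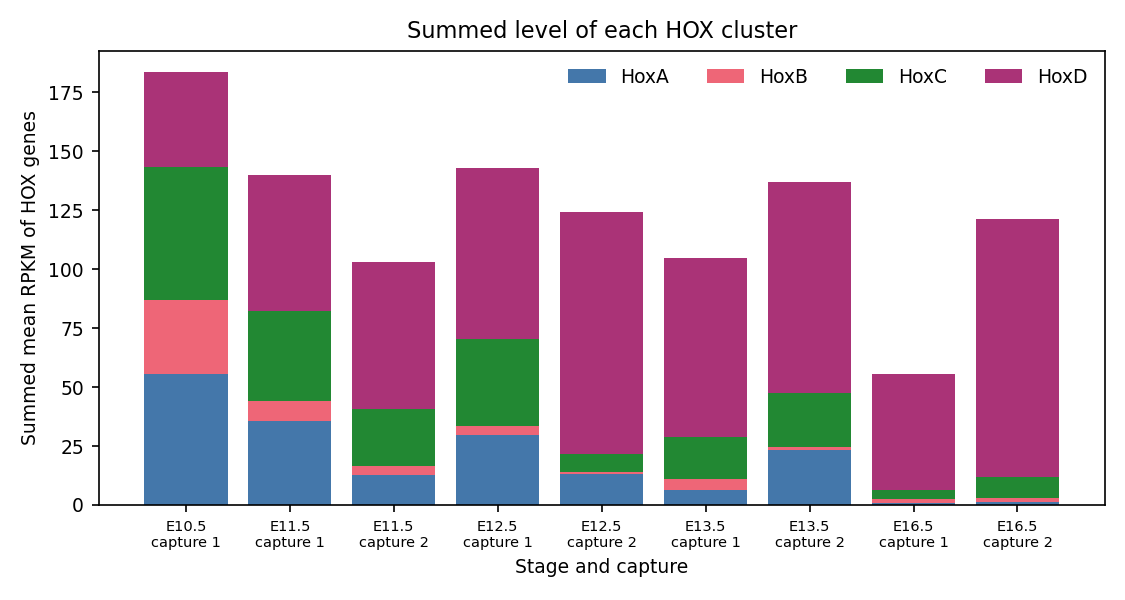
Summed mean RPKM of the HOX genes of each cluster (vertical axis), stacked, in each of the 9 captures (horizontal axis). HoxA, HoxB and HoxC fill most of the E10.5 bar, and HoxD makes up 88.5% and 90.3% of both E16.5 bars.

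**Figure D2:**
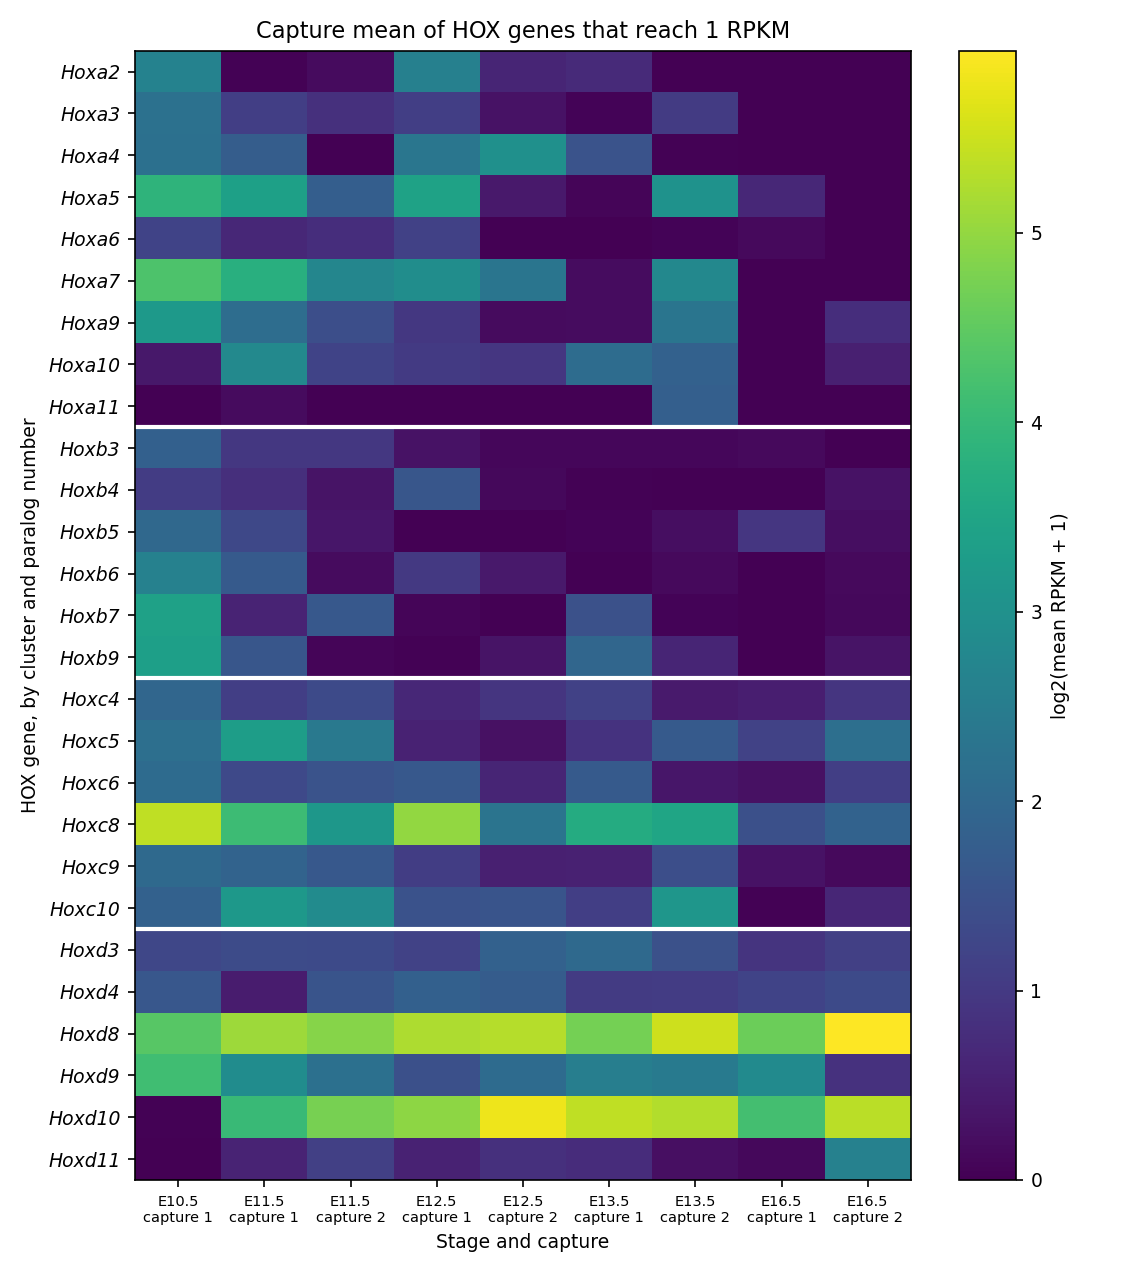
Mean level over the cells of a capture of each HOX gene that reached a mean of 1 RPKM in a capture, as log2(mean RPKM + 1), with genes in rows by cluster and paralog number and captures in columns. Most rows of HoxA and HoxB are brightest in the E10.5 column (not those of Hoxa4, Hoxa10, Hoxa11 and Hoxb4), Hoxd10 is dark at E10.5 alone, and Hoxd8 is bright in every capture.

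The stage of the highest mean was E10.5 for 20 of the 33 genes, E11.5 for 3, E12.5 for 4, E13.5 for 3 and E16.5 for 3. No gene was at 0 in all cells, but 6 stayed under 1 RPKM in every capture. Of these, Hoxc11 and Hoxb1 had a value above 0 in 1 cell each, and Hoxd1, the most 3′ gene of HoxD, in 1 cell. The 14 genes that reached a mean of 5 RPKM in a stage are described one by one, and the other 13 by their ranges.

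By paralog number, the summed level of paralogs 1 to 4 was 23.8 RPKM at E10.5, and 3.42 and 4.74 at E16.5. Paralogs 5 to 8 without Hoxd8 summed to 99.1 RPKM at E10.5, then 53.2 and 25.5 (E11.5), 52.1 and 9.29 (E12.5), 16.7 and 26.4 (E13.5), and 4.88 and 7.67 (E16.5). With Hoxd8 they summed to 119.3 RPKM at E10.5, and 28.5 and 69.02 at E16.5. Paralogs 9 to 11, Hoxd10 included, were at 40.4 RPKM at E10.5 and at 36.99 to 62.6 from E11.5 to E13.5. At E16.5 they were at 23.6 and 47.6. Without Hoxd10 they were at 40.3 RPKM at E10.5, then 29.4 and 16.3 (E11.5) and 7.13 and 7.69 (E12.5). Their later sums without Hoxd10 were 13.6 and 23.8 (E13.5), and 6.56 and 8.01 (E16.5). Of the E10.5 sum, 16.6 RPKM was Hoxd9, with 89.8% of it in 1 cell. Without Hoxd8 and Hoxd10, both groups were therefore lower at E16.5 than at E10.5. The central paralogs held the largest part at E10.5.

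Taken over all cells of a capture, single cells held fewer HOX genes at later stages. A cell at E10.5 had a mean of 7.41 HOX genes at 1 RPKM or more (SD 2.76 over 59 cells), and the lowest had 2. The later means were 4.17 and 3.73 (E11.5), 3.33 and 3.54 (E12.5), 2.91 and 3.39 (E13.5), and 1.45 and 1.76 (E16.5). No cell at E10.5 lacked HOX genes at this level, while 41.9% and 35.3% of the cells at E16.5 did. These values pool cell classes, and 19 of 31 and 16 of 34 cells at E16.5 were Amh-positive. In the E16.5 cells with Pdgfra and without Amh, a class described below, the means were 3 and 2.94. Of those cells, 0% and 6.25% lacked HOX genes. The E10.5 and E13.5 captures have the same labelled depth, as do those of E11.5 and E16.5, and in both pairs of stages every capture of the later one had the lower mean. Over the cells of a capture, the number of HOX genes had a correlation with the number of genes detected of -0.227 to 0.444 (30 to 59 cells, which share a chip and a depth). The capture means averaged 5.1 in the 3 early and 2.73 in the 6 late captures, a difference of -2.37, which was not tested because the sum runs over the chosen genes.

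**Figure D3:**
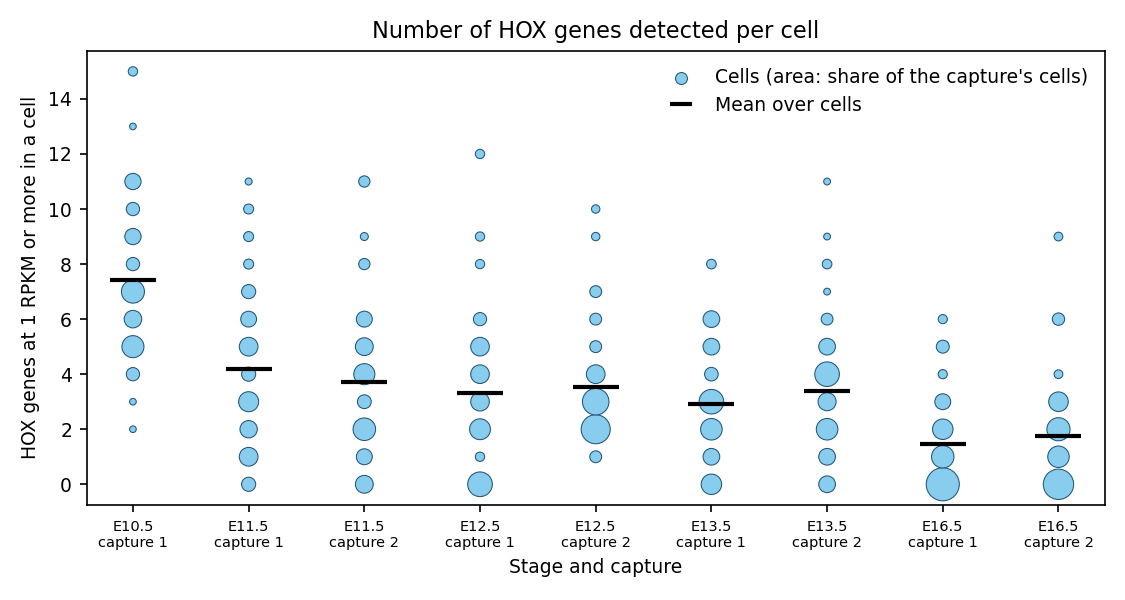
Number of HOX genes at 1 RPKM or more in a cell (vertical axis) in each capture (horizontal axis). The area of a circle is the share of the capture's cells with that number and the bar is the mean, which is 7.41 at E10.5 and 1.45 and 1.76 at E16.5.

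Among the posterior HoxD genes, Hoxd10 (chromosome 2, 74691924 to 74695105, 1816 exonic bases) was nearly silent at E10.5 and present from E11.5 on. Its capture means were 0.0328 RPKM at E10.5, then 15.5 and 25.7 (E11.5), 29.9 and 54.96 (E12.5), 40.9 and 37.8 (E13.5), and 17.1 and 39.6 (E16.5). The E10.5 capture lay below all 8 others. At E10.5 1 of 59 cells reached 1 RPKM (1.69%, 95% Wilson interval 0.3 to 9). The later shares were 15.4% and 12.2% (E11.5), 20% and 51.4% (E12.5), 30.4% and 26.8% (E13.5), and 19.4% and 26.5% (E16.5). In the cells that had it the level was high, with a median of 30.5 to 166.96 RPKM over the 8 later captures. Few cells therefore set each mean: the highest cell held 17.5% to 51.4% of the summed Hoxd10 signal of a capture.

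On the log2(mean RPKM + 1) scale Hoxd10 was 4.34 ± 0.64 (SE) higher at E11.5 than at E10.5 (limma, adjusted p = 0.0141, 2 captures against 1, higher in 2 of 2). It was the only HOX gene of 25 tested to pass, while 0.39% of all 12313 genes passed. It missed the threshold without the second E11.5 capture (adjusted p = 0.171), with a pseudocount of 5 (0.222), with the mean of log2 values over cells (0.605), for the share of cells (0.419), without a filter on low values (0.0679) and with cells of 5000 genes or more only (0.0874). At E13.5 against E10.5, the stages of like depth, Hoxd10 rose by 5.29 ± 0.64 (adjusted p = 0.00184) and was again the only one of 25, beside 1.06% of all genes. This held without each other capture in turn (adjusted p 0.00132 to 0.0294) and for the share of cells (0.0346), but not for the mean of log2 values (0.0953). Both contrasts share the single E10.5 capture, whose spread is taken from the other stages. Hoxd10 met the filter (a mean of 1 RPKM in 2 captures) only through captures after E10.5. These rises, and its test across the stages below, are therefore in part set by the filter.

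Across the 5 stages the moderated F test passed for Hoxd10 (adjusted p = 0.00577) and for no other HOX gene, beside 1.62% of all genes. Without the E10.5 capture Hoxd10 did not pass (adjusted p = 0.664), and its stage means then spanned 0.99 on the log2 scale. It also missed the threshold with a pseudocount of 5 (0.0632), without a filter (0.109) and with the mean of log2 values (0.0676).

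Hoxd8 (chromosome 2, 74704615 to 74707933), the central HoxD gene 12691 bases from the start of Hoxd10, was present at every stage. It had 20.2 RPKM at E10.5, then 33.2 and 28.5 (E11.5), 36.4 and 38.5 (E12.5), 25.3 and 44.5 (E13.5), and 23.6 and 61.3 (E16.5). The paired captures of E16.5 enclosed nearly the whole range of the other stages, and no stage contrast passed for Hoxd8. It was at 1 RPKM or more in 22.6% to 75.7% of the cells, with the highest share in the second E12.5 capture. Together Hoxd8 and Hoxd10 made 11.03% of the summed HOX level at E10.5 and 73.3% and 83.2% at E16.5.

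Hoxd9 lies between these genes, and its mean and its share of cells ran apart. Its means were 16.6 RPKM at E10.5, then 6.51 and 3.57 (E11.5), 1.73 and 3.26 (E12.5), 4.87 and 4.46 (E13.5), and 6.2 and 0.805 (E16.5). At E10.5 a single cell with 877 RPKM held 89.8% of the signal, and without that cell the mean was 1.71. By share of cells Hoxd9 was at 18.6% at E10.5, at 40.5% in the second E12.5 capture, and at 51.8% and 39.3% at E13.5. Its cells held low levels, with a median of 3.34 to 9.78 RPKM among cells at 1 RPKM or more. No contrast passed for Hoxd9.

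Hoxd11, the most posterior HoxD gene measured, was at 0 in all 59 cells of E10.5, a count that leaves room for a share up to 5.08%. It lay between 0.0992 and 1.19 RPKM in 7 later captures and at 5.14 in the second E16.5 capture, where 1 cell with 174.6 RPKM held 99.96% of the signal. Hoxd3 and Hoxd4 stayed between 0.371 and 3.09 RPKM in all captures. Of their exon lengths, 62.3% and 52.3% are shared on the same strand with each other or with the gene Gm28230. Reads there cannot be split with certainty among these genes.

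Hoxc8 (chromosome 15, 102990607 to 102994111) led the HOX genes at E10.5. Its means were 40.8 RPKM at E10.5, then 15.95 and 7.95 (E11.5), 30.9 and 3.9 (E12.5), 11.6 and 10.4 (E13.5), and 1.76 and 2.64 (E16.5). The E10.5 capture was highest and both E16.5 captures lowest, while the first E12.5 capture came near E10.5. In that E12.5 capture 1 cell of 583 RPKM held 62.9% of the signal, and the mean without it was 11.9. The share of cells with Hoxc8 gave a steadier order: 88.1% at E10.5 (interval 77.5 to 94.1), then 42.3% and 43.9% (E11.5), 40% and 27.03% (E12.5), 32.1% and 42.9% (E13.5), and 9.68% and 5.88% (E16.5).

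Hoxa7 (chromosome 6, 52214491 to 52221854), a central HoxA gene, had 18.7 RPKM at E10.5, then 12.6 and 5.63 (E11.5), 6.63 and 4.01 (E12.5), 0.14 and 5.9 (E13.5), and 0.00253 and 0 (E16.5). It was in 78% of the E10.5 cells, then in 32.7% and 36.6% (E11.5), 16.7% and 21.6% (E12.5), and 1.79% and 23.2% (E13.5). At E16.5 it reached 1 RPKM in 0 of 31 and 0 of 34 cells, counts that leave room for shares up to 9.68% and 8.82%. The E16.5 captures lay below all others. On the mean scale the contrast of E16.5 with E11.5 was -3.24 ± 0.84 and did not pass (adjusted p = 0.0886). Antisense exons overlap 20.4% of the Hoxa7 exons, and the library kit does not mark strand.

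Hoxa5, another central HoxA gene, had 13.6 RPKM at E10.5, then 9.5 and 2.44 (E11.5), 9.74 and 0.316 (E12.5), 0.0598 and 7.25 (E13.5), and 0.591 and 0.011 (E16.5). The captures of E12.5, and those of E13.5, lay far apart, with one near the E11.5 level and one near 0. Hoxa9 had 8.35 RPKM at E10.5, then 3.39 and 1.69 (E11.5), 0.945 and 0.125 (E12.5), 0.151 and 3.97 (E13.5), and 0.00234 and 0.706 (E16.5). Hoxa2, an anterior paralog, had 5.25 RPKM at E10.5, then 0.0222 and 0.136 (E11.5), 5.08 and 0.529 (E12.5), 0.63 and 0.0128 (E13.5), and 0 and 0 (E16.5). Hoxa4 was at 3.56 RPKM at E10.5, then 2.37 and 0 (E11.5), 4.07 and 6.92 (E12.5), 1.88 and 0.0308 (E13.5), and 0 and 0 (E16.5). Its E12.5 means rested on few cells, 1 of 30 and 4 of 37. Of the HoxA genes with mean values under 5 RPKM in every stage, Hoxa10 was highest in the first E11.5 capture (6.04) and Hoxa11 was above 1 RPKM in 1 capture. Hoxa3 and Hoxa6, and Hoxb4, Hoxb5, Hoxc4 and Hoxc6 in the other clusters, had capture means from 0 to 3.65 RPKM.

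In HoxB 3 genes reached 5 RPKM, and they did so at E10.5. Hoxb7 had 9.72 RPKM at E10.5, then 0.518 and 2.1 (E11.5), 0.0607 and 0 (E12.5), 1.79 and 0.0474 (E13.5), and 0 and 0.0952 (E16.5). Hoxb9 had 9.38 RPKM at E10.5, then 2 and 0.0558 (E11.5), 0.0173 and 0.253 (E12.5), 2.94 and 0.529 (E13.5), and 0 and 0.236 (E16.5). Hoxb6 had 5.12 RPKM at E10.5, then 2.2 and 0.135 (E11.5), 0.995 and 0.331 (E12.5), 0.00149 and 0.105 (E13.5), and 0 and 0.105 (E16.5). For all 3 the E10.5 capture was above the 8 others. They were in 32.2%, 22.03% and 42.4% of the E10.5 cells and in at most 9.76% of the cells of any later capture.

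In HoxC, the stage means of Hoxc5 and Hoxc10 were highest at E11.5, though the second E13.5 capture of Hoxc10 lay between those of E11.5. Hoxc5 had 3.55 RPKM at E10.5, then 8.97 and 4.33 (E11.5), 0.478 and 0.204 (E12.5), 0.845 and 2.21 (E13.5), and 1.27 and 3.5 (E16.5). In the E16.5 captures 1 cell each held 95.7% and 99.9% of the Hoxc5 signal. Hoxc10 had 2.62 RPKM at E10.5, then 8.1 and 6.37 (E11.5), 1.83 and 1.92 (E12.5), 1.14 and 7.83 (E13.5), and 0.0237 and 0.56 (E16.5). The contrast of E16.5 with E11.5 was -2.70 ± 0.76 for Hoxc10 (limma, adjusted p = 0.118).

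Of the 33 genes, 3 had early captures that all lay above the 6 late ones: Hoxb3 (0.955 to 2.54 RPKM against 0.00189 to 0.229), Hoxc5 and Hoxc9 (2.13 to 3.11 against 0.114 to 1.71). None lay the other way. Among the 12313 tested genes, which include Hoxc5 and Hoxc9 but not Hoxb3, 2.56% were higher in all early captures and 2.96% in all late ones. Antisense exons overlap 52.9% of the Hoxb3 exons.

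The limma fits over capture means used genes with a mean of at least 1 RPKM in at least 2 captures, which 25 of the 33 HOX genes met. Late against early captures gave 0 HOX genes past an adjusted p of 0.05, beside 0.577% of all genes, and 9 of 25 at an unadjusted p under 0.05, beside 10.9% of all. E16.5 against E11.5 also gave 0, beside 1.52% of all genes, and 5 of 25 at an unadjusted p under 0.05, beside 12.9%. Without the filter, in all 33 genes, 24 had a lower value late than early (49.4% of all genes did) and the median difference was -0.65, with no gene called. By cluster, among the tested genes, the late minus early differences were below 0 for 8 of 8 HoxA, 5 of 5 HoxB, 6 of 6 HoxC and 1 of 6 HoxD genes. A gene that meets the filter through its early captures has to differ, so these counts describe the genes and do not test them.

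The share of cells at 1 RPKM or more gave more calls than the mean, from the same captures. At E13.5 against E10.5, Hoxa7, Hoxb6, Hoxc8, Hoxa5 and Hoxb7 fell (adjusted p = 0.000171, 0.00127, 0.00333, 0.00708 and 0.0272) and Hoxd10 rose (0.0346), 6 of 25 genes beside 2.32% of all. At E16.5 against E11.5, Hoxa7, Hoxc8, Hoxa5, Hoxa9 and Hoxa3 fell (4.49e-05, 0.0034, 0.00537, 0.016 and 0.0238), 5 of 25 beside 3.81% of all. At E11.5 against E10.5 no HOX gene passed, beside 0.146% of all. Late against early, Hoxa9 and Hoxa5 fell (0.0175 and 0.0422) and Hoxd10 rose (0.0486), 3 of 25 beside 1.72%. Across the 5 stages 8 of 25 passed, beside 5.23%: Hoxa7, Hoxc8, Hoxa5, Hoxb6, Hoxa9, Hoxa3, Hoxb7 and Hoxd10. The first 2 of these contrasts each stay within one labelled depth. Hoxb6 entered these tests only through early captures, E10.5 and the first of E11.5, so its fall is in part set by the filter. Hoxd10 entered only through captures after E10.5, so its rise from E10.5 is in part set by the filter as well.

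**Figure D4:**
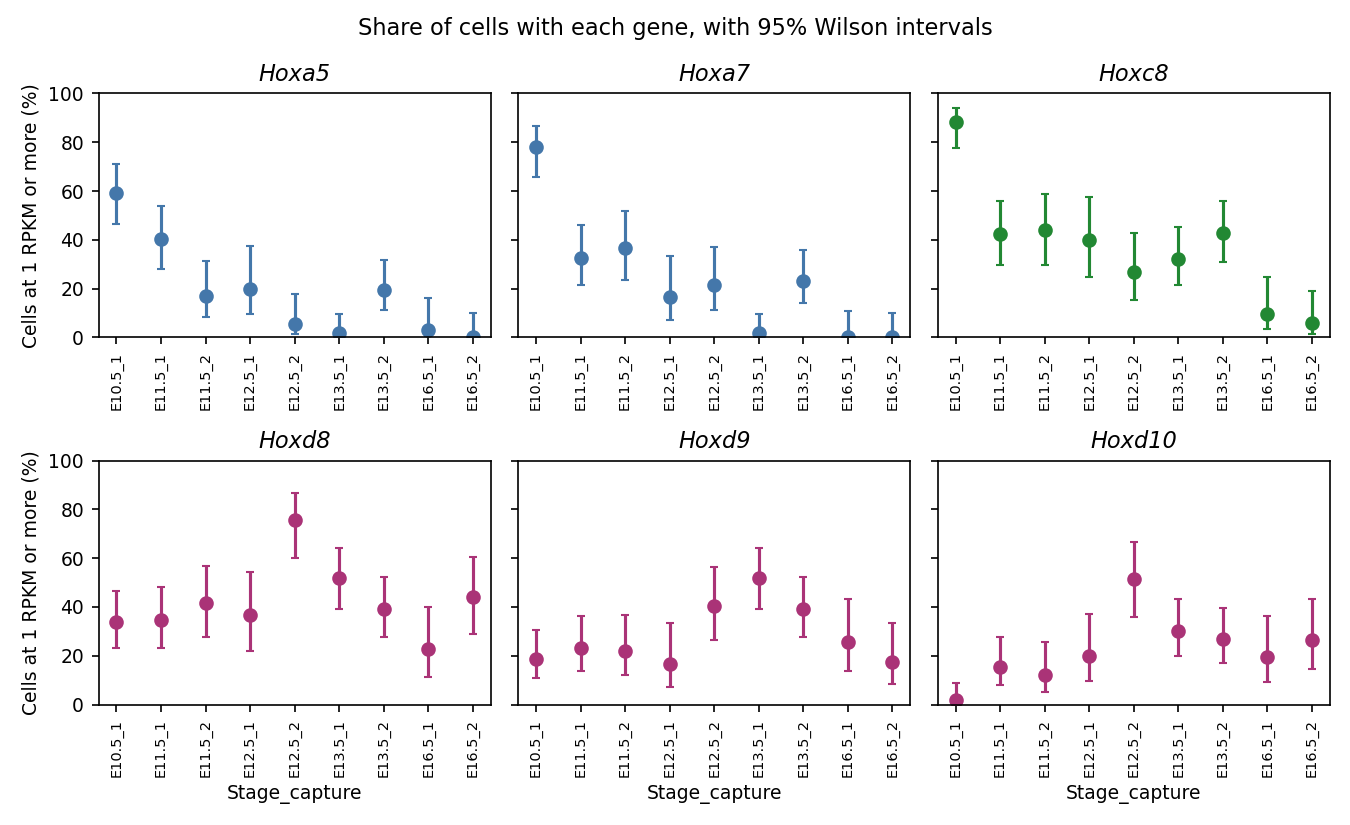
Share of cells at 1 RPKM or more (vertical axis, percent) in each capture (horizontal axis) for 6 HOX genes, with 95% Wilson intervals that cover counting error only. Hoxa7 goes from 78% at E10.5 to 0% in both E16.5 captures and Hoxc8 from 88.1% to 9.68% and 5.88%, while Hoxd10 starts at 1.69%.

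Cells of each late capture were then compared by class: Amh-positive cells (1 RPKM or more of Amh, the anti-Müllerian hormone made by Sertoli cells) and cells without Amh at that level that had Pdgfra, a receptor of interstitial cells, at 1 RPKM or more. The captures held 5 to 19 cells of the first class and 10 to 35 of the second. The 10 Sertoli markers summed to 1808 to 10150 RPKM in the first class and 25.1 to 474 in the second, and the 8 interstitial markers to 17.5 to 331 and 548 to 2221. The summed HOX level was lower in Amh-positive cells. Summed over all 33, they had 36.3, 59.6, 27.6, 37.5, 3.46 and 19.6 RPKM in the Amh-positive cells of the 6 captures from E12.5 to E16.5. The Pdgfra-positive cells of the same captures had 163.1, 144.3, 146.3, 157.4, 127.4 and 237.1 RPKM, so the ranges did not overlap.

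Hoxd10 means in Amh-positive cells were 0.0821, 14.5, 10.49, 0, 0.689 and 0 RPKM, and in Pdgfra-positive cells of the same captures 49.7, 61.3, 63.7, 41.4, 33.2 and 83.7. All 6 captures had the lower value in the Amh-positive class, and the ranges did not overlap. The difference was -4.37 ± 0.61 on the log2 scale (limma with the capture as block, adjusted p = 0.00198). It passed without each capture in turn (adjusted p 0.00184 to 0.013) and under all 19 alternatives (largest adjusted p 0.048).

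Hoxd8 means were 30.2, 10.7, 4.71, 21.2, 0.0318 and 17.8 RPKM in Amh-positive cells, and 26.1, 51.6, 32.1, 60.5, 59.3 and 112.4 in the other class. Amh-positive cells were lower in 5 of 6 captures, all but the first E12.5 capture with its 5 Amh-positive cells. The difference was -2.40 ± 0.61 (adjusted p = 0.0441). It missed the threshold without the second E12.5, either E13.5 or either E16.5 capture (adjusted p 0.0796 to 0.104), without a filter (0.188), with a pseudocount of 0.1 (0.0919), with median-ratio scaling (0.0601) and with a class threshold of 5 RPKM (0.0602).

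These were the 2 of 17 HOX genes tested that passed, beside 4.92% of all 12132 genes. Several of the 17 met the filter through Pdgfra-positive cells alone, so the signs of their differences are no test. Calls of such genes, by share of cells too, are in part set by the filter. Hoxd10 and Hoxd8 met it through Amh-positive cells as well. Without the filter 29 of 31 HOX genes had a difference below 0, beside 57.3% of all. By share of cells 6 of 17 were lower in Amh-positive cells, beside 12.2% of all genes: Hoxd10, Hoxc6, Hoxd8, Hoxc5, Hoxc8 and Hoxd4 (adjusted p = 0.00176, 0.0036, 0.00753, 0.0185, 0.0384 and 0.0468). The mean number of HOX genes per cell was 0.4, 2.7, 1.67, 2.12, 0.368 and 0.5 in Amh-positive cells and 3.78, 4.04, 3.64, 3.71, 3 and 2.94 in the others. At E16.5, 68.4% and 68.8% of the Amh-positive cells had no HOX gene at 1 RPKM, against 0% and 6.25% of the Pdgfra-positive ones. The median number of genes detected was higher in the Amh-positive class in each of the 6 captures.

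**Figure D5:**
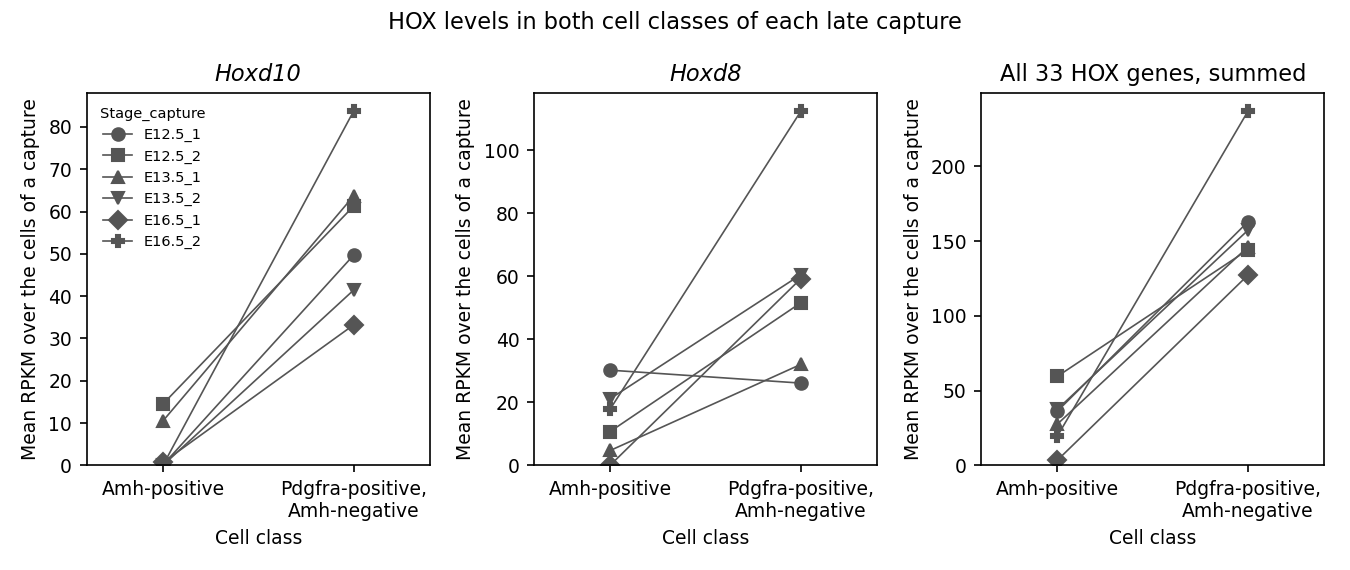
Mean RPKM over the cells of a capture (vertical axis) in Amh-positive and in Pdgfra-positive, Amh-negative cells (horizontal axis), for Hoxd10, Hoxd8 and the sum of all 33 HOX genes, with a line for each of the 6 late captures. All lines rise to the right except that of the first E12.5 capture for Hoxd8, with 30.2 and 26.1.

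Within Pdgfra-positive, Amh-negative cells, which were present at all stages (10 to 35 cells a capture), the clusters also moved apart. HoxA was at 60.2 RPKM at E10.5, then 40.7 and 11.04 (E11.5), 23.3 and 11.999 (E12.5), 8.44 and 27.7 (E13.5), and 0.0528 and 2.44 (E16.5). HoxD was at 26.4 RPKM at E10.5, then 84.2 and 87.2 (E11.5), 83.6 and 123.4 (E12.5), 111.3 and 111.8 (E13.5), and 117.8 and 213.7 (E16.5). The E10.5 capture was highest for HoxA and lowest for HoxD. The summed HOX level of these cells showed no steady fall. It was 166.1 RPKM at E10.5, 130.5 to 163.1 from E11.5 to E13.5, and 127.4 and 237.1 at E16.5. In these cells alone Hoxd10 was higher at E11.5 (limma, adjusted p = 0.0457) and at E13.5 (0.0101) than at E10.5, and across the 5 stages its adjusted p was 0.0304. Here too Hoxd10 met the filter only through captures after E10.5.

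Cells with Hoxd10 at 1 RPKM or more were set beside the other cells of the same capture in the 8 captures from E11.5 on, as a description. Hoxd9, its neighbour, was in a larger share of the Hoxd10 cells in 8 of 8 captures (22.2% to 80%, against at most 43.6% of the others). Hoxd8, Hoxd11 and Hoxc10 were in a larger share in 7 of 8, and Hoxa7 in 1 of the 6 captures with any Hoxa7 cell. Pdgfra was more frequent in the Hoxd10 cells in 8 of 8 captures, and Amh in 0 of the 6 that held Amh-positive cells. The Hoxd10 cells had the higher median number of detected genes in 5 of the 8 captures.

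Genes of the HOX pathway were taken from lists of TALE cofactors, upstream regulators, Polycomb, Trithorax and cluster flanks. Of the 9 TALE cofactors tested, 3 passed as lower in Amh-positive cells and none as higher, beside 4.92% of all genes called in either direction. They include Pknox2 (-2.14 ± 0.48, limma, adjusted p = 0.0241) and Meis2 (-2.29 ± 0.58, 0.0429). Meis2, a homeodomain cofactor of HOX proteins, had 0.00894, 9.77, 2.89, 0.803, 0.249 and 2.51 RPKM in Amh-positive cells of the 6 captures and 13.3, 12.01, 9.01, 9.83, 13.2 and 14.6 in Pdgfra-positive ones. Both genes were lower in 6 of 6 captures. Leaving out a capture kept the call in 3 of 6 cases for Pknox2 and in 1 of 6 for Meis2, with adjusted p up to 0.131. The Meis2 call was also lost with cells of 5000 genes or more (0.488), without a filter (0.111), with a pseudocount of 0.1 (0.0692) and without germ-marker cells (0.0506).

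Of the 5 upstream axial and retinoic acid genes tested, 1 passed, beside 1.52% of all genes for E16.5 against E11.5 and 1.62% across the stages. Aldh1a2, which makes retinoic acid, had 137.1 RPKM at E10.5, then 118.7 and 90.3 (E11.5), 98.8 and 106.3 (E12.5), 35.7 and 66.4 (E13.5), and 12.3 and 9.52 (E16.5). It fell from E11.5 to E16.5 by 3.14 ± 0.38 (limma, adjusted p = 0.00159) and changed across the 5 stages (0.00296). Both calls held without each capture in turn (up to 0.0292 and 0.0381), and both were lost without a filter on low values (0.0648 and 0.0625). The call of E16.5 against E11.5 was also lost for the share of cells (0.134). No other TALE or upstream gene passed in any comparison, and none of the 14 Polycomb, 7 Trithorax and demethylase, or 7 flanking genes tested did so. Ezh2, the Polycomb methyltransferase, had 55.6 RPKM at E10.5 and 15.02 to 37.8 in the other captures, and Rnf2, a Polycomb ubiquitin ligase, had 26.4 to 58.2 RPKM over all 9. Wdr5, a subunit of the Trithorax-type methyltransferases, had 5.11 to 31.8 RPKM, and Atp5g3 and Cbx5, which flank HoxD and HoxC, had 106.4 to 260.7 and 70.3 to 198.7 RPKM.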

How the data were processed

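The authors deposited RPKM values per cell and gene, from single-cell poly-A RNA libraries (per the labels: SMARTer cDNA on Fluidigm C1 chips, Nextera XT, 100 bp pairs). Builds GRCm38.p3 and mm10 are named in the submitters' processing notes, but which software mapped and counted the reads, and by which rules cells and genes were kept, is not given in the sources used here. Of 435 labelled cells, 400 had values and 35 were not analysed here. The smallest steps of the values, set against exonic lengths, were checked for the unit.

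Left out were 3 cells with fewer than 3000 detected genes. Within the second E12.5 capture, cells 49 and 56 had nearly identical values (correlation 0.998, next pair 0.701) and were averaged into 1. Capture means of RPKM, as log2(mean + 1), entered limma 3.58.1 (R 4.3.3, trend and robust). Genes had to reach a mean of 1 RPKM in 2 or more captures, which left 12313, and Benjamini-Hochberg adjustment ran over all of these with a threshold of 0.05. A difference on this scale understates the change of low genes. Residual degrees of freedom were 4 for stages, 7 for late against early and 5 for classes, where a class needed 5 cells. E10.5 has 1 capture and its spread is assumed to be that of the other stages.

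Genes were given capture by capture if they reached 5 RPKM in a stage or passed a test, and list members if they passed (up to 4) or had the largest means. The HOX rows, lists and tests were chosen with earlier results of these data known. Alternatives were scaling, pseudocount, filter, averaging, share of cells (arcsine square root), cells kept, captures left out, sequencing run and class rules, and, chosen after seeing the data, 3 selections of cells by marker. The fits were tested on simulated data. Intervals are Wilson 95%, and a share of 0 is given the limit set by 3 cells, both for counting error only. Promoter windows come from RefSeq (GRCm38.p6), and gene positions from GENCODE M21. Values of some genes are not reported here.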

Additional observations from a re-analysis of the deposited data

Results flagged for a closer look

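Among the 6 late captures, and among the 6 capture differences between cell classes, values were checked for one that stood apart, by the gap to its nearest neighbour relative to the whole range on the log2 scale (Dixon, 95%). Of 42 such sets 9 were found. Chance gives about 1 in 20. In several of the flagged captures 1 cell held most of the signal, and whether that makes such gaps more common was not tested.

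Hoxa2, Hoxa6 and Hoxb4 stood apart in the first E12.5 capture, with means of 5.08, 1.21 and 2.04 RPKM against at most 0.63, 0.11 and 0.226 in the other late captures. Hoxb7 and Hoxb9 stood apart in the first E13.5 capture (1.79 and 2.94 RPKM against at most 0.0952 and 0.529), the one made on a medium chip. Of the Hoxb7 signal there, 99.9% was in 1 cell. Hoxb5 stood apart in the first E16.5 capture, with 0.936 RPKM against at most 0.163. Hoxd11 stood apart in the second E16.5 capture, with 5.14 RPKM against 0.0992 to 0.767, and the same capture stood apart in its class difference, at -3.58 on the log2 scale against -1.09 to -0.10. Hoxa4 was higher in the Amh-positive cells of the second E12.5 capture, by 2.31 on the log2 scale, against 0 to 0.86 in the other captures.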

How the results depend on the processing

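The number of HOX genes past the threshold depended on the measure. With the mean of log2 values over cells it was 6, 9, 1 and 10 for E11.5 against E10.5, E13.5 against E10.5, E16.5 against E11.5 and across the 5 stages, and all calls in the first 3 were falls. These were of 25 HOX genes tested, beside 92, 238, 497 and 598 of all 12313 genes. With the share of cells it was 3 late against early, 0 for E11.5 against E10.5, 6 for E13.5 against E10.5, 5 for E16.5 against E11.5, 8 across stages and 6 between classes. In the same order 1.72%, 0.146%, 2.32%, 3.81%, 5.23% and 12.2% of all genes passed. With a pseudocount of 5 it was 0 for E11.5 against E10.5 and across stages, and with 0.1 it was 1 between classes. Of all genes, 12 and 137 of 12313 passed with a pseudocount of 5, and 497 of 12132 with 0.1. Without a filter it was 3 for E13.5 against E10.5, 2 across stages and 1 between classes, while the 1 gene called for E11.5 against E10.5 was lower at E11.5 and was not Hoxd10, and with cells of 5000 genes or more 0 for E11.5 against E10.5. The 3 stage results without a filter stand beside 257, 202 and 205 of all 16456 genes. The class result stands beside 171 of 15705, and that for cells of 5000 genes or more beside 33 of 12200. Median-ratio scaling gave 1 between classes, beside 606 of all 12132 genes. Leaving out a capture gave 0 to 1 for E11.5 against E10.5 (0 without its second capture), 0 to 1 across stages (0 without E10.5) and 1 to 2 between classes. In the class fits with a capture left out, 266 to 567 of all genes passed. Within the 25 M read captures late against early sets 2 captures against 1. There the median difference of the 19 HOX genes tested was -1.18, beside 0.0587 for all genes. Within the 10 M read captures 0 of 18 HOX genes passed, beside 0 of all 11732. For these counts and for the HOX genes per cell, 26 alternative values moved, and the causes were not tested. Directions were checked only for genes in the comparisons where the mean or the share of cells called them. Hoxc10 at E16.5 against E11.5, and Hoxa7 and Hoxc8 late against early, were checked too. None reversed in an alternative run. The test across the 5 stages has no direction, so it could show no reversal. The class fit without the replicate block (no capture term) gave 2, beside 606 of all 12132 genes. With the block it also gave 2, beside 597. The implied depth limits genes near 1 RPKM at the 10 M read stages.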
